A study of Mus musculus with 15 samples.

Results

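The 9 genes described here encode liver enzymes that lengthen and desaturate fatty acids. They are the elongases Elovl1, Elovl2, Elovl3, Elovl5 and Elovl6, the front-end desaturases Fads1 and Fads2, and the stearoyl-CoA desaturases Scd1 and Scd2. They were chosen by symbol, after the Ensembl IDs had been matched to mouse gene names, from 54281 genes in all. All 9 were among the 11568 genes that passed the filter on low values. The libraries came from livers of 15 C57BL6J mice, all male and 9.5 months old, with 1 library each. Mice of the DEN/HFD groups had received 25 mg/kg of the liver carcinogen diethylnitrosamine (DEN) at 2 weeks of age, followed by 32 weeks of a lard-based high fat diet (HFD) with 60% of its energy as fat. The chow groups had received only the vehicle of DEN and stayed on chow. MCOPPB, a ligand selective for the nociceptin/orphanin FQ opioid receptor, was injected intraperitoneally at 5 mg/kg in 3 cycles of 5 days with 2 days of washout, 21 days in all. Saline was injected in the other mice. The 4 groups were DEN/HFD with MCOPPB (n = 3), DEN/HFD with saline (n = 4), chow with MCOPPB (n = 5) and chow with saline (n = 3). DEN and the diet were always given together, so their effects cannot be told apart.

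Palmitate made by fatty acid synthase, and fatty acids taken up from the diet, are extended in the endoplasmic reticulum by adding carbons from malonyl-CoA. The ELOVL protein carries out the first and rate-limiting condensation of each cycle, and the different ELOVL enzymes prefer different chain lengths and degrees of unsaturation. SCD enzymes place the first double bond in palmitate and stearate to give palmitoleate and oleate, while FADS1 and FADS2 are the delta-5 and delta-6 desaturases that, with ELOVL5 and ELOVL2, turn the essential dietary fatty acids into arachidonate and docosahexaenoate. In liver, many of these genes are known targets of SREBP-1c, and Scd1 and Elovl6 are textbook genes of lipid synthesis after feeding. Elovl3 is known in mouse liver for its higher level in males and its daily rhythm.

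Levels are given as normalized counts, obtained by undoing the authors' variance-stabilising transformation, and differences are given on the authors' variance-stabilised log2 scale, which compresses the differences of genes with few reads. A gene was called changed when its p value from limma, with Benjamini-Hochberg adjustment over all 11568 genes, was under 0.05. The estimated depth was 9.32 to 18.7 M reads per library. All 8 hepatocyte markers were detected in every library. The RNA integrity number (RIN) listed first in the labels was 8.7 to 9.2 in DEN/HFD MCOPPB, 8.4 to 9.2 in DEN/HFD saline, 9.9 to 10 in chow MCOPPB and 9 to 9.7 in chow saline. The chow MCOPPB livers therefore overlapped no other group in RIN, while a second RIN value in the labels ran from 8.9 to 9.6 over all groups. Chow saline liver 3 held the most transcripts of the fat cell genes Adipoq (147 normalized counts) and Cfd (138). DEN/HFD saline liver 4 had 4.25 normalized counts of Cidea beside 219 to 437 in the other DEN/HFD saline livers. Adipoq was at 0 in every DEN/HFD saline liver, so Cidea did not follow Adipoq there. In bulk liver RNA, fewer cells of a type and less RNA per cell cannot be told apart. The labels number the mice of each group separately, and the p values measure the spread between these libraries.

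Per kilobase of exon, Scd1 was the most abundant of the 9 genes in all 15 libraries, with a mean of 18239 ± 12413 normalized counts per kb (SD over 15 libraries). Elovl5, an elongase of polyunsaturated chains, averaged 2202 ± 1167 per kb. Fads2 averaged 1828 ± 593 per kb, and Elovl5 was above it in only 8 of 15 libraries, so their order was not settled. Fads1 averaged 1104 ± 256 per kb and was below Fads2 in 15 of 15 libraries. Elovl2, which extends longer polyunsaturated chains than Elovl5 does, averaged 827 ± 165 per kb and was below Fads1 in 13 of 15. Elovl6, which extends palmitate to stearate, averaged 202 ± 142 per kb. Elovl3, an elongase of saturated and monounsaturated chains, averaged 162 ± 137 per kb. Elovl6 was above Elovl3 in 8 of 15 libraries, and Elovl3 was above Elovl1 in 10 of 15, so the order of these neighbours changed with the liver. Elovl1, an elongase of very long saturated chains expressed in most tissues, averaged 82.7 ± 16.0 per kb. Scd2, the SCD enzyme typical of mouse brain, averaged 7.07 ± 6.63 per kb and was below Elovl1 in 15 of 15 libraries. From the lowest to the highest liver, the level of Elovl3 differed 47.2-fold, that of Scd2 20.8-fold, that of Scd1 12.7-fold, that of Elovl6 8.89-fold and that of Elovl5 6.37-fold. For Fads2, Fads1, Elovl2 and Elovl1 this range was 3.58-fold, 2.73-fold, 2.203-fold and 2.002-fold.

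**Figure D1:**
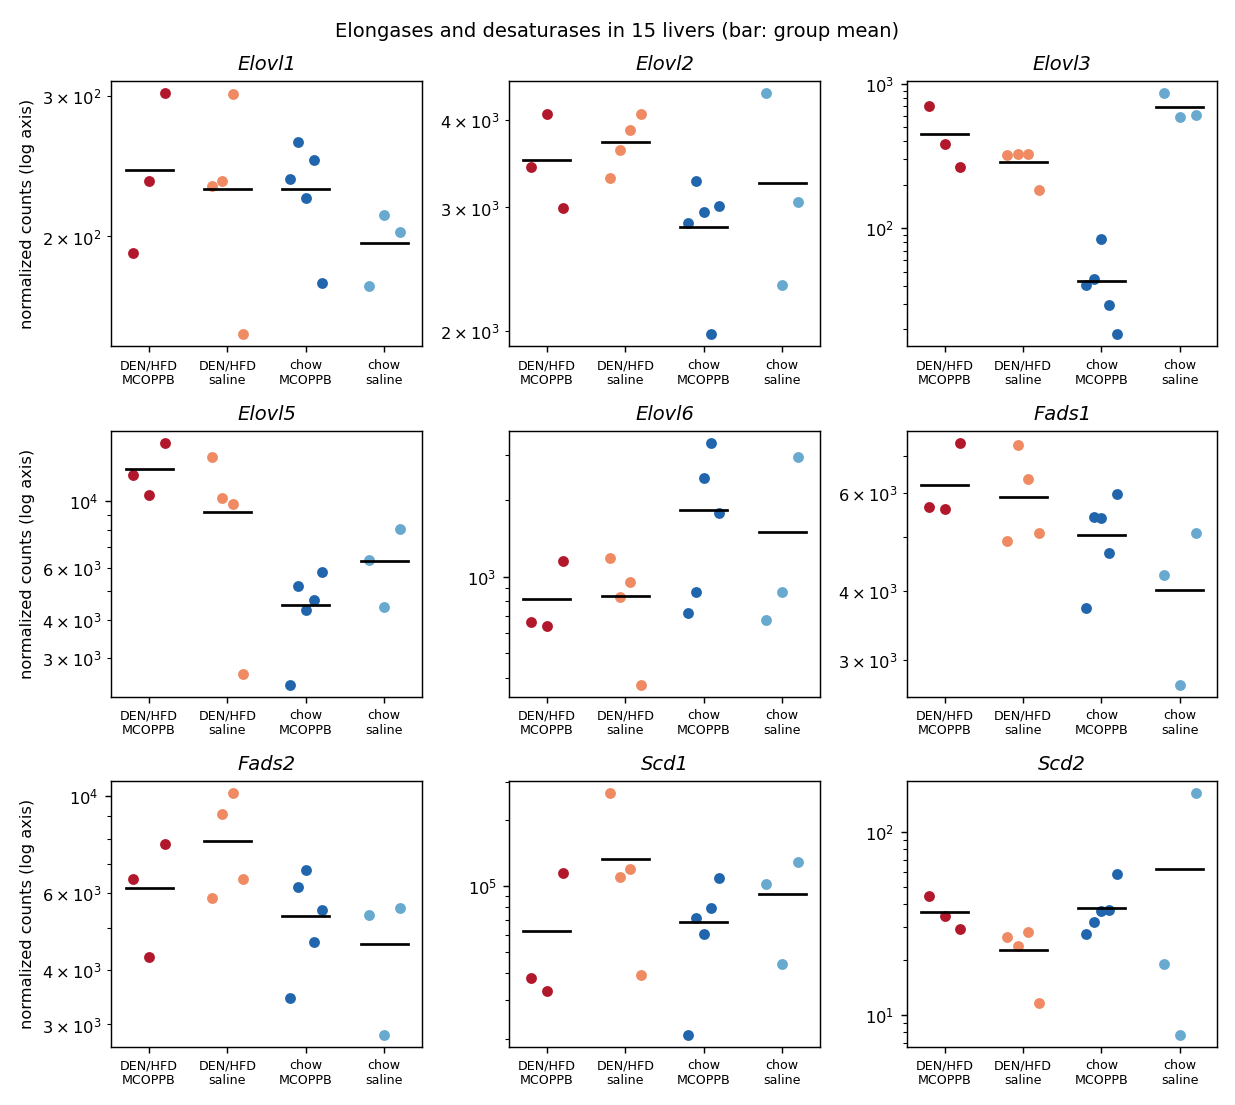
Normalized counts (log axis, a different range in each panel) of the 9 genes in each liver, by group, with 1 point per liver and a bar at the group mean. The chow MCOPPB livers lie between 18.3 and 83.6 for Elovl3, below all livers of the other 3 groups, while the groups of the other genes overlap in most pairs.

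Of the 9 genes, 5 lie on chromosome 19 of GRCm38. Fads2 (ENSMUSG00000024665.8, chr19:10062765-10101746, minus strand) and Fads1 (ENSMUSG00000010663.5, chr19:10182888-10196877, plus strand) lie near each other, as do Scd2 (ENSMUSG00000025203.6, chr19:44293674-44306864, plus strand) and Scd1 (ENSMUSG00000037071.3, chr19:44394455-44407879, minus strand). Elovl3 (ENSMUSG00000038754.5) lies at chr19:46131897-46135694 on the plus strand. Elovl1 (ENSMUSG00000006390.15) lies at chr4:118428093-118432953, Elovl2 (ENSMUSG00000021364.16) at chr13:41182381-41220405, Elovl5 (ENSMUSG00000032349.13) at chr9:77917364-77984519 and Elovl6 (ENSMUSG00000041220.10) at chr3:129532355-129638495. Elovl2 is on the minus strand and the other 3 are on the plus strand. Genes on the opposite strand overlap Elovl1 (Cdc20, mean 6.05 normalized counts), Elovl3 (Pitx3, mean 1.22) and Elovl6 (the antisense gene Gm35986, mean 32.6). The libraries were directional but the strand setting of the counting is not given in the sources used here, so reads of these overlaps could have been placed in either gene. Of all 75-base windows in the exons of Scd1, 3.15% also occur in other genes, among them Scd2, Scd3 and Scd4. This share was 1.78% for Scd2, 2.05% for Elovl6 and 0% for the other members.

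Promoter sequences from RefSeq (GRCm38.p6; 250 bases before to 50 bases after a start site) were given for 5 of the 9 genes. The promoters of Elovl5 and Elovl6 are shown because these 2 elongases had differences of opposite sign between DEN/HFD and chow livers among MCOPPB-treated mice (1.52 and -0.92 on the log2 scale, neither called). Capitals mark every match, on either strand, to 5 short motifs: the sterol regulatory element core TCACNCCAC, the E-box CACGTG, the CCAAT box CCAAT, the nuclear receptor half-site AGGTCA and the STAT5 site TTCNNNGAA.
Elovl5 (chr9:77917115-77917414, plus strand): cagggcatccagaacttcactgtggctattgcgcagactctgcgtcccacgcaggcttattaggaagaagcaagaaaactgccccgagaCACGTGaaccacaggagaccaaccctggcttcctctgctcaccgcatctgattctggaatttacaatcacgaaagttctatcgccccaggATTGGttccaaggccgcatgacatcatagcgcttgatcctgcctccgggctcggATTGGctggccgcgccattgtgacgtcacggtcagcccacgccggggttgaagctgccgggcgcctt
Elovl6 (chr3:129532136-129532435, plus strand): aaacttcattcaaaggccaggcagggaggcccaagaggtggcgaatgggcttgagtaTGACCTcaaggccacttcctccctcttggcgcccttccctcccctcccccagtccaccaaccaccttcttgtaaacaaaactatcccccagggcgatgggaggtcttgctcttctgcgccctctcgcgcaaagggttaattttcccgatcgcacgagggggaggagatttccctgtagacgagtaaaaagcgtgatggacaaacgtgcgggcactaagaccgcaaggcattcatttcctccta
The Elovl5 promoter held an E-box whose first base is at -161 from the start site, and 2 CCAAT boxes read from the opposite strand (ATTGG) at -71 and -17. The Elovl6 promoter held a half-site on the opposite strand (TGACCT) at -193. Of 32851 mouse promoters of the same length, 7.15% held the E-box, 37.4% the CCAAT box, 16.3% the half-site, 1.24% the sterol element core and 8.3% the STAT5 site. Neither the sterol element core nor the STAT5 site was found in these letters in any of the 7 promoters of Elovl1, Elovl2, Elovl5, Elovl6 and Fads2.

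Elovl3 fell with MCOPPB in livers of chow-fed mice, and no other member was called. Elovl3 had 40.0, 44.7, 83.6, 29.4 and 18.3 normalized counts in the 5 chow MCOPPB livers, against 865, 589 and 613 in the 3 chow saline livers. The groups did not overlap, and every treated liver was far below every saline liver. The means were 43.2 ± 24.8 in chow MCOPPB (SD, n = 5) and 689 ± 153 in chow saline (SD, n = 3), so the level was 15.9-fold lower. The log2 difference was -2.78 ± 0.26 (SE; limma adjusted p = 1.5e-05), the third smallest p of all genes tested. Thus 1 of the 9 members was called in this comparison, where 37 of 11568 genes (0.32%) were. The first RIN values of these groups did not overlap (9.9 to 10 with MCOPPB, 9 to 9.7 with saline). Treatment and RIN therefore cannot be told apart here, although Elovl3 stayed called with RIN as a covariate. Chow saline liver 3, which held fat cell transcripts, had 613 counts of Elovl3, while the other 2 chow saline livers had 865 and 589 with 14.2 and 0 counts of Adipoq. Members with an unadjusted p under 0.05 numbered 1 of 9, beside 1048 genes (9.06%), and members without overlap between the groups also 1 of 9, beside 552 genes (4.77%). Macrophage markers moved along with this comparison: the log2 differences of all 10 were positive (median 0.56, none called), none was at 0 in any liver of these groups, and their summed level was 1997 to 3552 in chow MCOPPB livers and 1035 to 1505 in chow saline livers. All 8 endothelial markers were positive too (median 0.28, none called; summed level 1299 to 1688 in chow MCOPPB livers and 1112 to 1282 in chow saline livers). Of 5 red blood cell markers that passed the filter, 4 were positive and 1 negative (median 0.82, none called). The summed level of all 6 was 7421 to 13093 in chow MCOPPB livers and 3712 to 10753 in chow saline livers. Of 4 fat cell markers that passed, 3 were negative and 1 positive (median -0.71, none called). The part of these cell types in the result was not tested.

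Under DEN/HFD, Elovl3 was not called between treatments. It had 709, 383 and 266 normalized counts in the DEN/HFD MCOPPB livers, against 320, 326, 328 and 183 in the DEN/HFD saline livers. The groups overlapped, with means of 453 ± 229 (SD, n = 3) and 289 ± 70.9 (SD, n = 4), and the log2 difference was 0.47 ± 0.27 (95% interval -0.10 to 1.03; adjusted p = 1.0). The difference between the MCOPPB effects, DEN/HFD minus chow, was 3.24 ± 0.37 on the log2 scale (limma adjusted p = 0.000535), and Elovl3 ranked second by p in this test. It was the only member called there, where 8 of 11568 genes (0.0692%) were called and 683 (5.9%) had an unadjusted p under 0.05. None of the 9 members was called for MCOPPB under DEN/HFD, where 3 of 11568 genes (0.0259%) were and 548 (4.74%) had an unadjusted p under 0.05. The members had 0 of 9 with an unadjusted p under 0.05 in this comparison.

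The diet comparisons of Elovl3 differed by treatment in the same way, and they share their libraries with the MCOPPB comparisons. Among MCOPPB-treated mice, Elovl3 was higher in DEN/HFD livers (453 ± 229, n = 3) than in chow livers (43.2 ± 24.8, n = 5), a 10.5-fold difference of the means. The log2 difference was 2.18 ± 0.26 (limma adjusted p = 0.000469), and the groups did not overlap. It was 1 of 9 members called, beside 66 of 11568 genes (0.571%), and with Elovl5 it was 1 of 2 with an unadjusted p under 0.05, beside 1427 genes (12.3%). With RIN as a covariate the log2 difference stayed at 2.10, but the adjusted p was 0.256 and 0 genes were called. Diet and RIN cannot be told apart in these 2 groups, whose RIN values did not overlap. Red blood cell markers moved with this comparison as well: the 5 of 6 that passed the filter were negative (median -1.14, none called), and the summed level of the 6 was 3823 to 4676 in DEN/HFD MCOPPB livers and 7421 to 13093 in chow MCOPPB livers. In the test of the difference between the MCOPPB effects the same 5 were negative (median -1.26, none called), as were all 10 macrophage markers (median -0.49) and all 8 endothelial markers (median -0.29), none of them called. Of 9 stellate cell markers, 8 were positive and 1 negative in that test (median 0.25, none called). For DEN/HFD in MCOPPB-treated mice, 7 of these 9 were positive and 2 negative (median 0.54, none called). The part of these cell types in the Elovl3 results was not tested. Among saline-treated mice, Elovl3 averaged 289 ± 70.9 in DEN/HFD livers (SD, n = 4) and 689 ± 153 in chow livers (SD, n = 3). These groups did not overlap either, but the log2 difference of -1.06 ± 0.27 had an adjusted p of 0.179 (unadjusted 0.000986), so Elovl3 was not called. No member was called in this comparison, beside 6 of 11568 genes (0.0519%). An unadjusted p under 0.05 was found for 3 of 9 members (Elovl3, Fads1 and Fads2), beside 1268 genes (11%). Of 10 macrophage markers, 9 were positive and 1 negative here (median 0.81, none called). Their summed level was 1997 to 4174 in DEN/HFD saline livers and 1035 to 1505 in chow saline livers. The part of macrophages in the results of these members was not tested.

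**Figure D2:**
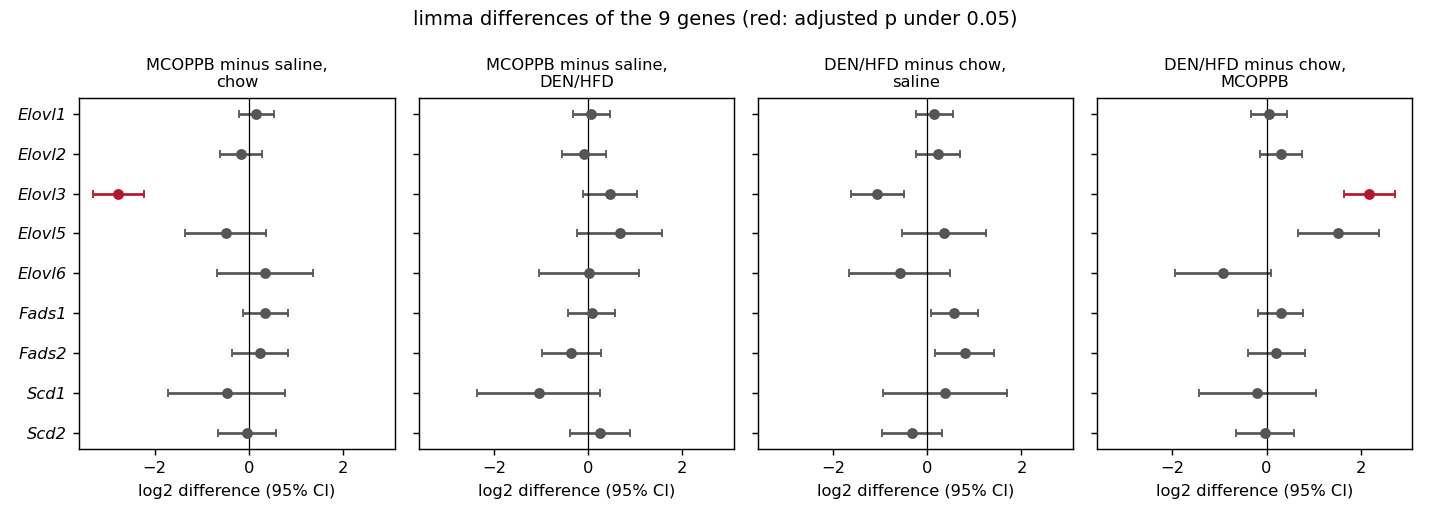
Log2 differences of the 9 genes in 4 comparisons, on the variance-stabilised scale, with 95% confidence intervals of the limma model; red marks an adjusted p under 0.05. Elovl3 is the only red point, at -2.78 for MCOPPB minus saline on chow and at 2.18 for DEN/HFD minus chow in MCOPPB-treated mice.

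The share of Elovl3 in the summed per-kb level of the 5 elongases followed the same pattern. It was 4.74% ± 2.51 in DEN/HFD MCOPPB livers (SD, n = 3), 3.91% ± 0.646 in DEN/HFD saline livers (n = 4), 0.955% ± 0.538 in chow MCOPPB livers (n = 5) and 11.02% ± 2.67 in chow saline livers (n = 3). Elovl5 held the largest mean share in each group, at 72.7% ± 5.71 in DEN/HFD MCOPPB, 62.4% ± 16.8 in DEN/HFD saline, 52.8% ± 6.91 in chow MCOPPB and 54.5% ± 3.75 in chow saline. The share of Elovl6 was 2.12% to 3.20% and 2.95% to 3.55% in DEN/HFD livers with MCOPPB and with saline, and 5.27% to 21.3% and 3.00% to 11.8% in chow livers with MCOPPB and with saline. A share of elongase mRNA says nothing of the amount of each enzyme.

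**Figure D3:**
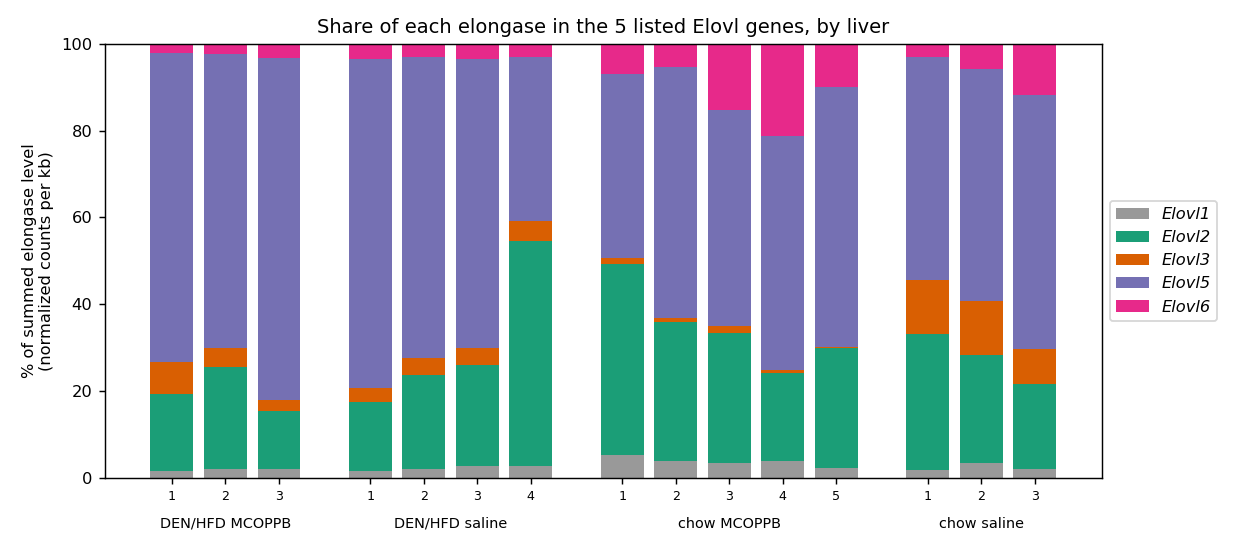
Stacked bars of the share of each listed elongase in their summed normalized counts per kb, in percent, with 1 bar per liver, numbered by replicate within its group. Elovl3 takes 0.955% on average in chow MCOPPB livers and 11.02% in chow saline livers.

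Because Elovl3 is known as a male-biased gene of mouse liver, it was set beside 25 other male-biased and 26 female-biased liver genes. Of the male-biased genes, 23 passed the filter, and the log2 differences for MCOPPB on chow were negative for 22 of them (median -1.79, 10 called lower), where the median over all genes was 0.00. Those called lower with the smallest p were Mup20 (-4.31 ± 0.42), Cyp4a12b (-2.96 ± 0.35), Mup21 (-2.88 ± 0.36) and Mup17 (-4.19 ± 0.68), which are 3 major urinary protein genes and a fatty acid hydroxylase gene. Of 19 female-biased genes that passed the filter, all had positive differences (median 1.35), and 8 were called higher. Cyp2b9 (5.50 ± 0.29), a steroid- and drug-metabolising cytochrome P450, had the smallest p. Of the 26 female-biased genes, 11 to 17 were at 0 in chow saline livers. The filter needed only 3 libraries, so a gene could pass through the chow MCOPPB livers alone. Cyp2c69 averaged 512 counts there, against 17.7 in chow saline, 11.4 in DEN/HFD MCOPPB and 1.81 in DEN/HFD saline. For such genes, the sign in any test with the chow MCOPPB group followed from the filter. One library stood apart in the male-biased list: the summed level of the 25 male-biased genes was 2263260 normalized counts in DEN/HFD saline liver 4, against 202158 to 357374 in the other 3 livers of its group. Under DEN/HFD, all 23 male-biased genes that passed the filter again had negative differences for MCOPPB (median -1.24, none called) and all 19 female-biased genes positive ones (median 0.55, with Cyp17a1 called higher at 1.64 ± 0.26). Without DEN/HFD saline liver 4, a setting chosen after seeing the data, all 23 male-biased genes stayed negative with a median of -0.81, and 17 of 19 female-biased genes were positive (median 0.50). The difference of Elovl3 for MCOPPB under DEN/HFD, 0.47 with all libraries, was not called and ran from 0.14 without DEN/HFD MCOPPB liver 1 to 0.73 without DEN/HFD MCOPPB liver 3 when single libraries were left out. In the test of the difference between the MCOPPB effects, where Elovl3 was called at 3.24, 17 of 23 male-biased genes were positive (median 0.68, highest 2.82, none called). Without DEN/HFD saline liver 4, 21 of 23 were positive (median 0.75, highest 3.37). The Elovl3 value in this test ran from 2.92 to 3.51 when single libraries were left out. Of the female-biased genes, 16 of 19 were negative in that test (median -1.10), and Cyp2b9 (-3.93 ± 0.42), Cyp2b13 (-1.93 ± 0.32) and Cyp2c40 (-2.74 ± 0.46) were called lower.

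**Figure D4:**
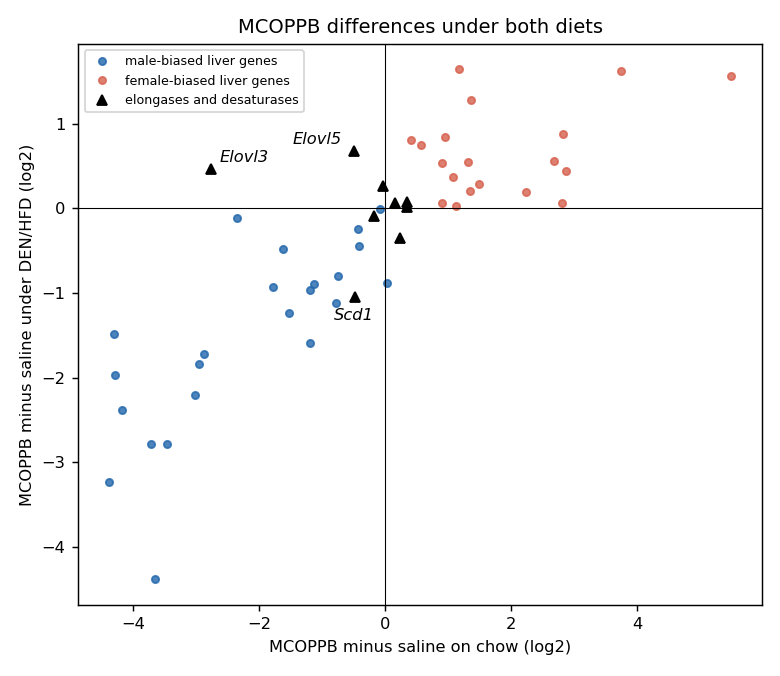
Log2 differences for MCOPPB minus saline on chow (horizontal) and under DEN/HFD (vertical) of the 9 genes, 23 male-biased and 19 female-biased liver genes, with 1 point per gene. The 2 comparisons share no libraries. Elovl3 lies at -2.78 on the horizontal axis and at 0.47 on the vertical axis, above all male-biased genes on the vertical axis.

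Within the diet comparison of MCOPPB-treated mice, 12 of 23 male-biased genes were positive (median 0.05), with Mup20 (3.47 ± 0.42) and Serpina12 (1.99 ± 0.40) called higher beside Elovl3. In saline-treated mice, 7 of 23 were positive (median -0.33, and -0.77 with 5 positive without DEN/HFD saline liver 4), with Cyp4a12b called lower at -2.18 ± 0.36. Female-biased genes were positive in 4 of 19 cases in MCOPPB-treated mice (median -0.96, 8 called lower) and in 13 of 19 in saline-treated mice (median 0.11, and 0.21 without DEN/HFD saline liver 4; Cyp2b9 called higher at 2.57 ± 0.31). In the comparison of MCOPPB-treated mice, the signs of female-biased genes that passed the filter through chow MCOPPB livers alone followed from that filter. Clock genes were examined since Elovl3 is known to cycle over the day. Of 19 clock genes that passed the filter, none was called for MCOPPB on chow (11 positive, median 0.07) or for DEN/HFD with saline (9 positive, median -0.02). Usp2, a clock-controlled deubiquitinase, was called lower for MCOPPB under DEN/HFD (-1.82 ± 0.29; 15 of 19 negative, median -0.44). Usp2 (-2.25 ± 0.28), Tef (-1.43 ± 0.26) and Per3 (-1.77 ± 0.33) were among the clock genes called lower for DEN/HFD in MCOPPB-treated mice (15 of 19 negative, median -0.65). The summed level of the 20 clock genes was 3069 to 4457 in DEN/HFD MCOPPB livers, 5838 to 8424 in DEN/HFD saline livers, 5676 to 10052 in chow MCOPPB livers and 6315 to 12146 in chow saline livers. Usp2 was also called in the difference between the MCOPPB effects (-2.25 ± 0.40; 15 of 19 negative, median -0.74). The clock genes thus moved for MCOPPB under DEN/HFD, where Elovl3 was not called. They also moved with the diet comparison of MCOPPB-treated mice and with the difference between the MCOPPB effects, where Elovl3 was called. For MCOPPB on chow, Elovl3 was called and no clock gene was. The part of the clock genes in the Elovl3 results was not tested.

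Elovl5 was the member with the next largest difference between diets. It had 12192, 10437 and 15577 normalized counts in the DEN/HFD MCOPPB livers, against 2446, 5229, 4342, 4661 and 5812 in the chow MCOPPB livers. All DEN/HFD livers of this pair lay above all chow livers, with means of 12736 ± 2613 (SD, n = 3) and 4498 ± 1277 (SD, n = 5), a ratio of 2.83. The log2 difference was 1.52 ± 0.41, with a limma adjusted p of 0.108 (unadjusted 0.00165), so it was not called. The adjusted p was 0.0209 when only these 2 groups were fitted and, when 1 library at a time was left out, ran from 0.00952 (without DEN/HFD saline liver 4, which contributes only to the estimate of the spread) to 0.426 (without DEN/HFD MCOPPB liver 3). Elovl5 and Elovl3 were the 2 of 9 members whose groups did not overlap in this comparison, as was the case for 1077 of 11568 genes (9.31%). The first RIN values were 8.7 to 9.2 in DEN/HFD MCOPPB and 9.9 to 10 in chow MCOPPB livers, so DEN/HFD and RIN cannot be told apart here. Over the 15 libraries, Elovl5 had r = 0.80 with the mean of the stellate cell markers (0.72 within groups). With the mean of the clock genes it had r = -0.77 (-0.61 within groups). The part of these in the Elovl5 difference was not tested. Among saline-treated mice, Elovl5 had 14019, 10251, 9804 and 2654 counts in DEN/HFD livers, against 6361, 4444 and 8083 in chow livers. Liver 4 of the DEN/HFD saline group was below all chow saline livers and the other 3 were above them. The log2 difference was 0.35 ± 0.43 (95% interval -0.55 to 1.25), and it was 0.077 without DEN/HFD saline liver 1 and 0.86 without liver 4 of that group. MCOPPB against saline gave -0.49 ± 0.41 on chow and 0.67 ± 0.43 under DEN/HFD, and neither was called. The DEN/HFD value was 0.16 without DEN/HFD saline liver 4.

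Elovl6 varied widely among chow livers and was called in none of the comparisons. It had 663, 642 and 1154 normalized counts in DEN/HFD MCOPPB livers, 1190, 833, 956 and 377 in DEN/HFD saline livers, 723, 870, 2434, 3349 and 1778 in chow MCOPPB livers and 678, 867 and 2955 in chow saline livers. The 4 highest livers were all from chow-fed mice, and the lowest was DEN/HFD saline liver 4. For DEN/HFD against chow, the log2 difference was -0.92 ± 0.48 in MCOPPB-treated mice (95% interval -1.94 to 0.10) and -0.59 ± 0.51 in saline-treated mice (95% interval -1.66 to 0.48). For MCOPPB against saline it was 0.02 ± 0.51 under DEN/HFD and 0.35 ± 0.48 on chow, with no call in these 4 comparisons. The 8 genes of malonyl-CoA and palmitate synthesis, which supply the substrates of ELOVL6, gave no call in these comparisons. Their median log2 differences were -0.31 (DEN/HFD, MCOPPB-treated), -0.42 (DEN/HFD, saline-treated), -0.01 (MCOPPB under DEN/HFD) and 0.11 (MCOPPB on chow). From liver to liver, Elovl6 followed the mean of these 8 genes, with Pearson's r = 0.92 over the 15 libraries and 0.90 for deviations from the group means.

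**Figure D5:**
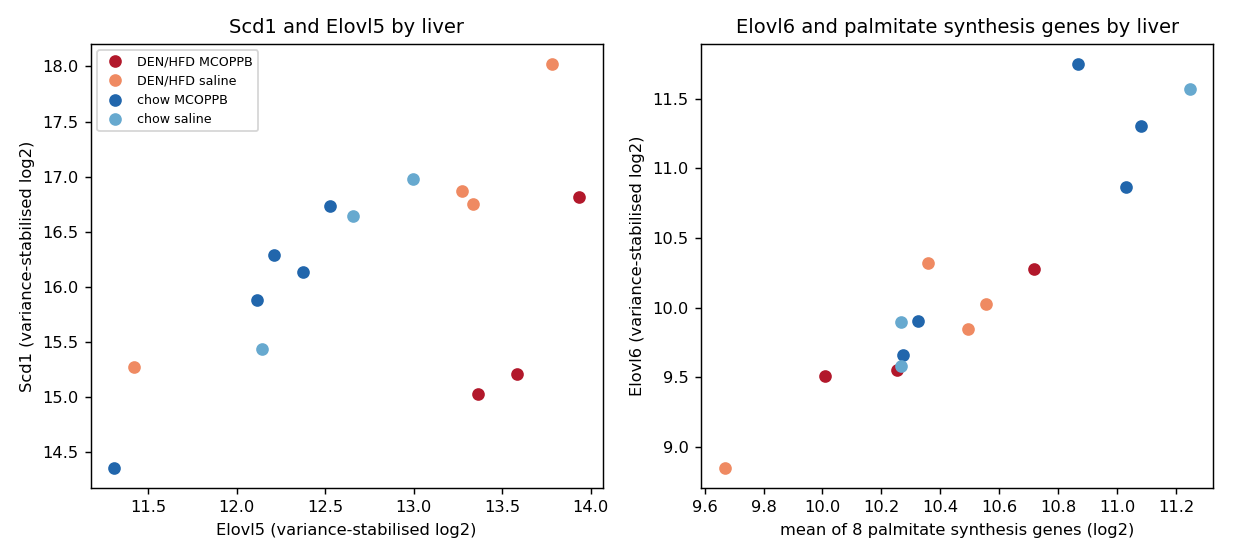
Scd1 against Elovl5 (left) and Elovl6 against the mean of 8 malonyl-CoA and palmitate synthesis genes (right), on the variance-stabilised log2 scale, with 1 point per liver coloured by group. Pearson's r is 0.58 on the left (0.90 for deviations from the group means) and 0.92 on the right.

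Fads2 and Fads1 showed differences in the same direction between diets, and neither was called. Fads2 had 5836, 9116, 10163 and 6460 normalized counts in DEN/HFD saline livers, against 5343, 2843 and 5545 in chow saline livers. The groups did not overlap, the ratio of the means was 1.72, and the log2 difference was 0.80 ± 0.30 (limma adjusted p = 0.314, unadjusted 0.0156). Elovl3 and Fads2 were the 2 of 9 members without overlap here, beside 1051 of 11568 genes (9.09%). Fads1 had 4915, 7331, 6360 and 5084 counts in DEN/HFD saline livers, against 4264, 2709 and 5085 in chow saline livers, with a log2 difference of 0.58 ± 0.24 (adjusted p = 0.370). The groups of Fads1 overlapped by the values of single livers, 4915 and 5084 against 5085. Among MCOPPB-treated mice the diet difference was 0.21 ± 0.28 for Fads2 and 0.30 ± 0.23 for Fads1. MCOPPB against saline gave -0.35 ± 0.30 for Fads2 and 0.08 ± 0.24 for Fads1 under DEN/HFD, and 0.23 ± 0.28 and 0.35 ± 0.23 for these genes on chow. Per kilobase, Fads2 was 1.44 ± 0.289 times Fads1 in DEN/HFD MCOPPB livers, 1.93 ± 0.271 times in DEN/HFD saline, 1.53 ± 0.214 times in chow MCOPPB and 1.65 ± 0.157 times in chow saline. The pair varied together between livers, with r = 0.86 over 15 libraries and 0.88 within groups.

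Scd1 was the most abundant and among the most variable of the 9 genes. It had 37827, 33147 and 115378 normalized counts in DEN/HFD MCOPPB livers, against 265916, 110297, 119507 and 39348 in DEN/HFD saline livers. In chow livers it had 20875, 71758, 60311, 79682 and 108756 with MCOPPB, against 102110, 44158 and 129284 with saline. Within each group the highest liver exceeded the lowest by more than the groups differed in their means. MCOPPB against saline gave -1.04 ± 0.62 under DEN/HFD (95% interval -2.35 to 0.26) and -0.47 ± 0.59 on chow (95% interval -1.73 to 0.78). DEN/HFD against chow gave -0.19 ± 0.59 in MCOPPB-treated mice and 0.38 ± 0.62 in saline-treated mice. None was called, and the interval of each comparison reached beyond 1 on the log2 scale in at least 1 direction. Scd1 made up 99.88% to 99.99% of the per-kb sum of Scd1 and Scd2 in every liver.

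Scd2 was near the lower limit of the filter, so that its differences are compressed on the log2 scale. It had 44.6, 34.5 and 29.3 normalized counts in DEN/HFD MCOPPB livers, against 26.6, 23.7, 28.2 and 11.6 in DEN/HFD saline livers. These groups did not overlap, as for 805 of 11568 genes (6.96%), and Scd2 was the only member without overlap there, but the log2 difference was 0.26 ± 0.30 and was not called. In chow livers it had 27.6, 32.1, 36.8, 37.4 and 58.4 counts with MCOPPB, against 18.9, 7.78 and 162 with saline. The value of 162 was from liver 3, the one with the most Adipoq and Cfd. For MCOPPB on chow the log2 difference was -0.04 ± 0.29, and it was 0.52 without that liver, with no call in either case. Of 9 fat cell markers, 4 passed the filter, and the summed level of all 9 was 378 to 747 in chow MCOPPB livers and 523 to 763 in chow saline livers. In chow saline liver 3 all 9 were detected, while 6 of 9 were at 0 in chow saline liver 2, Adipoq, Plin1, Lep and Cfd among them. Not all markers were highest in liver 3: Adrb3 had 33.0 counts there and 214 in liver 2, and Cidea had 10.9 counts there and 75.6 in liver 1. Chow saline liver 3 also had the highest summed level of the 8 malonyl-CoA and palmitate synthesis genes in its group (30571, against 10286 and 12637). The parts of fat cell transcripts and of lipid synthesis in the Scd2 value were not tested.

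Elovl2 had 3430, 4077 and 2991 normalized counts in DEN/HFD MCOPPB livers, 3306, 3619, 3863 and 4078 in DEN/HFD saline livers, 2850, 3274, 2958, 1980 and 3016 in chow MCOPPB livers and 4362, 2325 and 3058 in chow saline livers. Its log2 differences were -0.09 ± 0.22 for MCOPPB under DEN/HFD, -0.17 ± 0.21 for MCOPPB on chow, 0.31 ± 0.21 for DEN/HFD with MCOPPB and 0.23 ± 0.22 for DEN/HFD with saline. Elovl1 averaged 242 ± 56.2 in DEN/HFD MCOPPB livers, 230 ± 61.7 in DEN/HFD saline livers, 229 ± 33.7 in chow MCOPPB livers and 196 ± 20.4 in chow saline livers, with log2 differences between 0.05 and 0.16 in the 4 comparisons. None of these was called. The 95% intervals of the Elovl1 differences lay between -0.32 and 0.54, those of Elovl2 between -0.62 and 0.76.

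The other enzymes of the pathway were examined as lists, and none had a called gene in any of the 5 tests unless named here. Of the remaining elongases and desaturases, only Fads3 and Fads6 passed the filter. Partners of the elongation cycle (Hsd17b12, Tecr and the Hacd dehydratases) had median differences of 0.16 for MCOPPB under DEN/HFD, -0.13 for MCOPPB on chow, 0.19 for DEN/HFD with MCOPPB and 0.03 for DEN/HFD with saline (5 of 6 passed the filter). Cytochrome b5 and its reductases, which pass electrons to the desaturases, had medians of -0.23, -0.04, -0.12 and 0.03 in the same comparisons (5 of 6 passed). Acyl-CoA activation and binding genes (8 of 8 passed), phospholipid and triglyceride acylation genes (11 of 12), peroxisomal chain-shortening genes (10 of 10) and ceramide synthesis genes (6 of 8) had medians between -0.15 and 0.24 in these 4 comparisons. Among 15 regulators of the SREBP, LXR and ChREBP pathways, Insig2, which retains SREBP precursors in the endoplasmic reticulum, was called higher for DEN/HFD in MCOPPB-treated mice (1.84 ± 0.36, limma adjusted p = 0.0253). Its level was 2148 ± 194 in DEN/HFD MCOPPB livers (SD, n = 3) and 563 ± 213 in chow MCOPPB livers (SD, n = 5). For MCOPPB on chow, 20 of 22 cholesterol synthesis genes driven by SREBP2 had positive differences (median 0.67), and 19 of 22 under DEN/HFD (median 0.37), with none called. Of 24 PPARalpha target genes, Acot3, a peroxisomal thioesterase of long-chain acyl-CoA that was also on the female-biased list, was called higher for MCOPPB on chow (2.24 ± 0.36). It was called lower for DEN/HFD in MCOPPB-treated mice (-2.11 ± 0.36), while Fgf21, a fasting hormone, was called higher there (1.05 ± 0.21).

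Across the 15 livers the members did not vary as one block. After subtracting group means, Scd1 and Elovl5 had the highest correlation of the 36 pairs (r = 0.90, against 0.58 before), followed by Fads1 and Fads2. Elovl6 and Scd1 had r = 0.68 and Elovl5 and Elovl6 r = 0.63 within groups. Elovl3 had r between -0.04 and 0.27 with each of the other 8 genes, and Elovl2 had r = -0.50 with Elovl6. These are descriptions of 15 livers that share their normalization and, with groups of 3 to 5, rest on few livers each. Chow MCOPPB liver 1 was the lowest for both Scd1 and Elovl5, and DEN/HFD saline liver 4 was the second lowest for Elovl5 and the fourth lowest for Scd1.

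The genes whose log2 level was most like that of each member over the 15 libraries, by Pearson's r, were the following. For Elovl3 they were Sec24d (r = 0.84), Mup20 (0.84) and Gm36041 (0.81), but within groups these values were 0.37, 0.29 and 0.11. For Elovl5 they were Cs (0.95), 2010003K11Rik (0.93) and Tceal8 (0.92), and Cs, the citrate synthase gene, kept r = 0.95 within groups. For Elovl6 they were Acaca (0.90), Khk (0.85) and Acss2 (0.85), which encode acetyl-CoA carboxylase, ketohexokinase and an acetyl-CoA synthetase. Fads1 had Ctc1 (0.89), Gm10134 (0.86) and Fads2 (0.86), and Fads2 had St3gal3 (0.88), Fads1 (0.86) and Smarca4 (0.85). Scd1 had 4732419C18Rik (0.82), Anxa7 (0.80) and Cyb5r3 (0.80). Cyb5r3, a reductase of cytochrome b5, had r = 0.88 within groups. Elovl1 had Cd72 (0.81), Arhgdia (0.81) and Dhrs7b (0.81), Elovl2 had Zfp367 (0.88), Dnajc21 (0.88) and Yap1 (0.87), and Scd2 had Myo9a (0.89), Bccip (0.85) and Necap2 (0.85).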

How the data were processed

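The authors deposited log2 values after a variance-stabilising transformation, for 54281 genes in 15 libraries. Per the submitters' processing notes, Trimmomatic, STAR 2.7.0e, HTSeq and DESeq2 were used with GRCm38 (mm10); their roles and settings are not given in the sources used here. The lowest value, 5.49, stands for 0 reads, and 31133 genes had it in every library. Levels were obtained by inverting the transformation. Inverted values did not return whole reads, so no count test was run and depths are estimates. Genes were kept when at least 3 libraries exceeded the lowest value by 1 or more on the log2 scale (22.5 normalized counts). GENCODE M21 held 54107 of the IDs.

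limma 3.58.1 in R 4.3.3 fitted 4 group means over all 15 libraries with a mean-variance trend (11 residual degrees of freedom). The steps were tested on simulated data. Errors of differences are moderated standard errors, those of levels are standard deviations. Replicate numbers did not pair samples: 19 pairs of libraries with 1 number in 2 groups had a mean residual correlation of -0.0273, with 5 above 0.1. Named genes were all 9 members in every comparison, called genes of the lists (up to 4 a list, smallest p first) and the 3 genes most like each member. A gene of the clock list that met this rule is not reported here. The members and lists were chosen with earlier results of these data known. Alternatives were another filter or none, quantile normalization, log2 of normalized counts plus 1, only the groups compared, RIN, replicate number as a block, and leaving out each library.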

Additional observations from a re-analysis of the deposited data

Results flagged for a closer look

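The effect of MCOPPB on Elovl3 differed between DEN/HFD and chow mice, with a limma difference between the effects of 3.24 on the log2 scale (adjusted p = 0.000535). DEN and the diet were given together, and the chow MCOPPB livers overlapped no other group in the first RIN value. Elovl3 in DEN/HFD saline liver 4 (183 normalized counts) lay far from the 320 to 328 of the other 3 livers of its group. Elovl2 in chow MCOPPB liver 4 (1980 normalized counts) lay far from the 2850 to 3274 of the other 4. Of 18 groups of 4 or 5 livers examined in this way, these 2 stood out, and chance alone gives about 1 in 20.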

How the results depend on the processing

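The call of Elovl3 held for MCOPPB on chow and for the difference between the MCOPPB effects under every alternative run, with log2 differences of -4.11 to -2.55 and 2.89 to 4.68; the values farthest from 0 came from log2 of normalized counts plus 1, which does not compress low levels. For DEN/HFD in MCOPPB-treated mice, RIN as a covariate left 0 members and 0 genes called (Elovl3 2.10), and fitting only the groups compared gave 2 members and 135 genes. No member was called for MCOPPB under DEN/HFD or for DEN/HFD in saline-treated mice under any alternative. RIN moved the genes called to 15 for MCOPPB on chow, 1 for DEN/HFD with saline and 3 for the difference between MCOPPB effects. The replicate block gave 23 genes for MCOPPB on chow, 0 for MCOPPB under DEN/HFD, 16 for DEN/HFD with MCOPPB and 2 for the difference, where Elovl3 kept its calls (-2.55, 1.95 and 2.89); same-numbered livers were not paired, with 17 of 64 other pairs also above 0.1. For MCOPPB under DEN/HFD, 6 genes were called with no filter, 8 with only the groups compared and 0 with quantile normalization. For the difference, 2 were called with no filter and 4 with log2 of normalized counts plus 1. Signs of uncalled members turned with RIN (MCOPPB on chow: Elovl2 0.26, Scd2 0.43; DEN/HFD with MCOPPB: Elovl2 -0.26, Fads2 -0.13; difference: Elovl2 -0.26, Scd2 -0.073), with the replicate block (DEN/HFD with MCOPPB: Elovl1 -0.079, Scd2 0.0086) and with log2 of normalized counts plus 1 (MCOPPB on chow: Scd2 0.33). Leaving out 1 library at a time gave the following ranges.
For MCOPPB on chow, 13 to 50 genes were called (lowest without chow saline 3, highest without chow saline 1 or DEN/HFD saline 4), and log2 differences ran from -0.39 to 0.056 for Elovl2, from -0.039 to 0.96 for Elovl6, from -0.073 to 0.40 for Fads2, from -0.40 to 0.52 for Scd2. For MCOPPB under DEN/HFD, 0 to 6 genes were called (0 without chow saline 3 or any one DEN/HFD liver, highest without chow saline 2), and log2 differences ran from -0.067 to 0.19 for Elovl1, from -0.20 to 0.013 for Elovl2, from -0.28 to 0.20 for Elovl6, from -0.050 to 0.19 for Fads1. For DEN/HFD with saline, 1 to 52 genes were called (highest without DEN/HFD saline 4), and log2 differences ran from -0.97 to 0.023 for Elovl6, from -0.084 to 0.86 for Scd1, from -0.69 to 0.23 for Scd2. For DEN/HFD with MCOPPB, 18 to 157 genes were called (lowest without DEN/HFD MCOPPB 3, highest without DEN/HFD saline 4, which also gave 2 called members against 1 otherwise), and log2 differences ran from -0.078 to 0.17 for Elovl1, from -0.76 to 0.14 for Scd1, from -0.098 to 0.041 for Scd2. For the difference between MCOPPB effects, 2 to 12 genes were called (highest without chow MCOPPB 4), and log2 differences ran from -0.23 to 0.028 for Elovl1, from -0.15 to 0.29 for Elovl2, from -0.94 to 0.057 for Elovl6, from -0.26 to 0.66 for Scd2. None of these members was called in any of these fits. The causes were not tested.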
